A study of Vaccinium corymbosum with 9 samples.

Results

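ACC oxidase is the enzyme that releases ethylene in the last step of the synthesis of this plant hormone. The blueberry annotation assigns its KEGG ortholog, K05933, to 17 of 93716 genes. The 9 genes described here are those of the 17 that reached an FPKM (fragments per kilobase of transcript and per fixed number of sequenced fragments) of at least 1 in at least 3 of the 9 libraries. The choice therefore used the expression levels themselves, and 48073 genes of all kinds pass the same filter. All libraries were made from fruit of Vaccinium corymbosum 'Bluecrop', the northern highbush blueberry, picked from untreated orchard plants. Early green fruit, fruit at color break and mature fruit each have 3 libraries, which the series text calls independent biological replicates. RNA came from ground fruit, and the labels name no separation of skin, flesh and seed.

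Ethylene is made from methionine by way of S-adenosylmethionine (SAM). ACC synthase turns SAM into 1-aminocyclopropane-1-carboxylate (ACC), and ACC oxidase oxidizes ACC to ethylene, carbon dioxide and cyanide with the help of iron and ascorbate. In tomato and other climacteric fruits a burst of ethylene drives ripening, and both enzymes are induced with it. Blueberry has been placed among climacteric and among non-climacteric fruits by different authors. ACC oxidases belong to the large superfamily of iron-dependent dioxygenases, in which related enzymes act on quite different substrates.

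The deposited estimated counts summed to 52919289 to 67604266 per library. Correlations across genes of log2 CPM (counts scaled to library size) ranged from 0.939 to 0.971 within stages. They ranged from 0.734 to 0.786 between green and color break, and from 0.939 to 0.954 between color break and maturity. Replicates 1 and 2 of color break correlated at 0.969 with each other and at 0.939 and 0.944 with replicate 3, which thus lay apart. Seed storage genes (85 of 111 passed the filter) summed to between 24995 and 30300 FPKM in the green stage, 1552 and 2321 at color break, and 1565 and 1797 at maturity. Chlorophyll a-b binding protein genes (2 of 6 passed) had 56.1 to 58.4, 17.4 to 18.6 and 10.04 to 13.5 FPKM in the same order, and the 1 laccase gene matched by name, a marker of vessels and stone cells, 12.6 to 14.9, 6.92 to 8.09 and 5.93 to 6.53. No protein name held the words legumin, vicilin or oleosin. The part of these tissue changes in the results below was not tested. In RNA of bulk fruit, fewer cells of a type and less RNA per cell cannot be told apart.

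Transcripts of the ACC oxidase family became several times more abundant at color break and were most abundant in mature fruit. The summed FPKM of all 17 genes was 188, 210 and 226 in green replicates 1 to 3. It was 961, 948 and 1089 at color break and 1625, 1651 and 1789 in mature fruit. The 3 stages did not overlap. The counts of the 17 genes were also summed to 1 feature. That sum does not depend on which of the 17 pass the filter or on how reads were divided among them. Its scaling still rests on the other genes that passed the filter. With this sum the family rose from green to color break by a log2 change of 2.51 ± 0.08 (SE), or 5.68-fold (edgeR quasi-likelihood test over all genes, Benjamini-Hochberg adjusted p = 1.03e-08). From color break to mature fruit the log2 difference was 0.73 ± 0.08 (adjusted p = 0.00177), below the log2 change of 1 that a call also required here. From green to mature fruit the sum rose 9.42-fold (3.24 ± 0.08, adjusted p = 2.73e-09). These changes carry TMM scaling factors of 1.13 to 1.15 in green and 0.927 to 0.945 in the other libraries, and FPKM does not, so folds and ratios of FPKM differ.

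**Figure D1:**
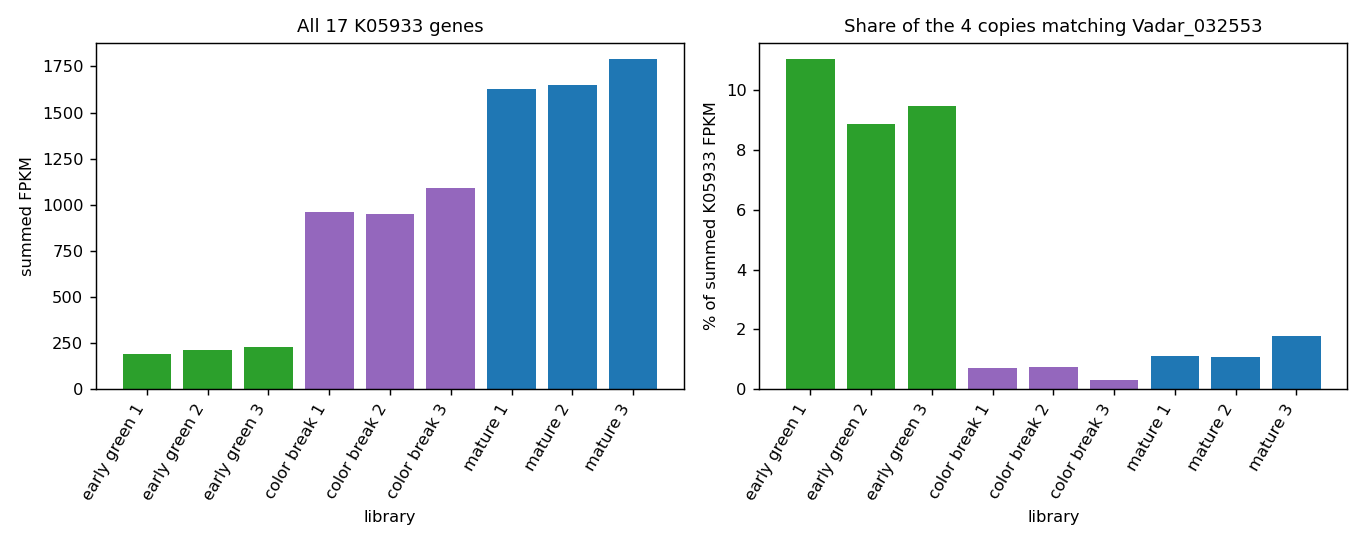
The left panel plots the summed FPKM of the 17 K05933 genes in each of the 9 libraries, and the right panel the percentage of that sum held by the 4 copies that match protein Vadar_032553. The sum lies between 188 and 226 FPKM in the green stage, between 948 and 1089 at color break and between 1625 and 1789 at maturity, while the share of the 4 copies is 8.86% to 11.04% in green and at most 1.78% afterwards.

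The 9 genes fell into 3 sets by the protein of the wild blueberry Vaccinium darrowii that the table gives as their best description. These sets had different courses over ripening. The 3 genes described as Vadar_018584 held 88.2% ± 1.26 of the summed family FPKM in green fruit (mean ± SD, n = 3), 98.2% ± 0.448 at color break and 98.0% ± 0.368 in mature fruit. The 4 genes described as Vadar_032553 held 9.79% ± 1.13, 0.580% ± 0.246 and 1.32% ± 0.402. The remaining pair, described as Vadar_002000, held 1.58% ± 0.138, 1.05% ± 0.174 and 0.578% ± 0.0483.

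Of the 9 genes, 5 rose and 4 fell between green fruit and color break, where 22.8% of all tested genes were called, 8.89% as rising and 13.9% as falling. The median log2 change was 1.85 over the 9 genes and -0.01 over all tested genes. Between color break and mature fruit 4 rose and 5 were not called, against 1.37% called and 0.763% rising among all tested genes, with medians of 0.75 and -0.01. Between green and mature fruit 5 rose and 4 were not called, against 24.6% called and 9.49% rising, with medians of 1.73 and -0.01. The 5 rising genes are the Vadar_018584 and Vadar_002000 sets. As the 9 genes form 3 sets of copies, they do not count as 9 independent genes. The 3 comparisons share their libraries, so their values are given side by side and not as separate evidence. One of the rising genes, on scaffold 26, passed the filter only through its color break and mature libraries and had to differ from green, so no test is given for that difference. It is part of the 5 and of the medians in both comparisons with green. Its rise is not to be read against the shares over all tested genes.

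**Figure D2:**
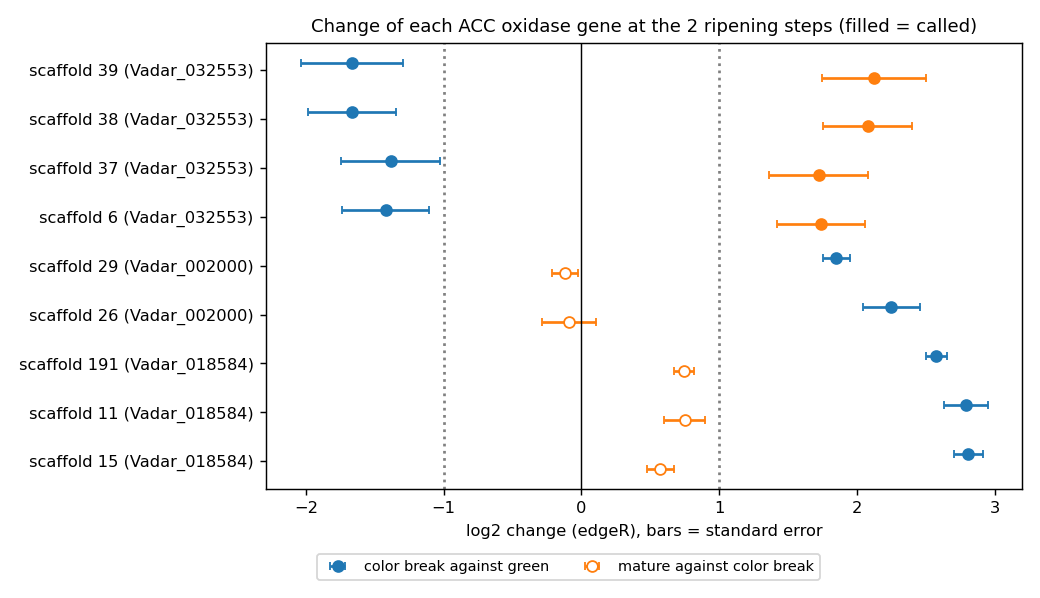
Points are edgeR log2 changes of the 9 genes at the steps from green to color break and from color break to mature fruit, bars are standard errors, and filled points were called. The Vadar_018584 and Vadar_002000 copies lie between 1.85 and 2.81 at color break, whereas the Vadar_032553 copies lie between -1.67 and -1.38 at color break and between 1.72 and 2.12 at the next step. The scaffold 26 copy had to differ from green fruit by the way it was chosen.

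The Vadar_018584 genes carry the annotation terms for ACC oxidase activity, ethylene synthesis and fruit ripening, and they are the only 3 of the 17 with the ripening term. VaccDscaff191-snap-gene-1.61 (scaffold 191, 123249 to 124548, plus strand, 4 exons) had 93.8, 86.5 and 94.8 FPKM in green, 432, 427 and 499.5 in color break and 738, 758 and 812 in mature replicates 1 to 3. Every color break library was above every green one and every mature library above every color break one. It rose 5.97-fold at color break (log2 change 2.58 ± 0.08, adjusted p = 6.02e-09). Its further log2 difference to mature fruit was 0.75 ± 0.07 (adjusted p = 0.00153, not called for its size). By mean FPKM it ranked 661 among the 93716 genes in green fruit, 89 at color break and 41 in mature fruit.

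VaccDscaff11-snap-gene-212.32 (scaffold 11, 21249383 to 21250682, plus strand, 4 exons) had 58.0, 85.9 and 91.1 FPKM in green, 431, 422 and 494 in color break and 746, 742 and 807 in mature replicates. It has the same transcript length of 1015 bases and the same span of 1300 bases as the copy on scaffold 191. The ratio of their FPKM was 0.962 to 1.01 in 8 of the 9 libraries and 0.619 in green replicate 1. How reads were divided between 2 such similar copies is uncertain, and the low value in green replicate 1 is part of the SE of its log2 change of 2.79 ± 0.16 at color break (adjusted p = 1.23e-06). Without that library the change was 2.62, and for the copy on scaffold 191 it was 2.59.

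The third copy, VaccDscaff15-snap-gene-205.28 (scaffold 15, 20555399 to 20557081, plus strand, 4 exons, 1398 bases), was lower throughout. It had 11.4, 15.2 and 14.8 FPKM in green, 79.3, 79.1 and 81.0 in color break and 112, 121 and 127 in mature replicates. Its stages did not overlap either. The log2 change at color break was 2.81 ± 0.11 (adjusted p = 2.65e-08) and the difference from there to mature fruit 0.57 ± 0.10 (adjusted p = 0.0116, not called for its size). From green to mature fruit the 3 copies rose 10.01-fold to 11.6-fold, in the order scaffold 191, 15 and 11. Summed, the 3 copies rose 6.47-fold at color break (2.69 ± 0.09, adjusted p = 1.13e-08).

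The 4 genes described as Vadar_032553 were lowest at color break. They are annotated with ACC oxidase activity and ethylene synthesis, and also with coumarin synthesis and the response to molecules of fungal origin, terms that the other 13 genes lack. VaccDscaff39-augustus-gene-284.28 (scaffold 39, 28468698 to 28471119, plus strand, 4 exons, 1342 bases) had 7.52, 7.63 and 7.93 FPKM in green, 2.49, 2.56 and 0.962 in color break and 8.45, 5.95 and 12.1 in mature replicates. The color break libraries lay below all others, and the green and mature libraries overlapped. It fell by 1.67 on the log2 scale at color break (SE 0.37, adjusted p = 0.00504), 3.18-fold, and rose 4.36-fold from there to mature fruit (2.12 ± 0.37, adjusted p = 0.0169). Between green and mature fruit the log2 difference was 0.45 ± 0.35 (adjusted p = 0.303).

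Its copies followed the same order of stages at lower levels. VaccDscaff38-augustus-gene-261.26 (scaffold 38, 26095288 to 26097331, plus strand, 963 bases) had 5.73, 4.43 and 6.01 FPKM in green, 1.82, 1.46 and 0.944 in color break and 4.11, 5.27 and 8.67 in mature replicates. VaccDscaff37-augustus-gene-16.26 (scaffold 37, 1630276 to 1632712, minus strand, 1354 bases) had 4.41, 3.82 and 4.40, then 1.34, 1.92 and 0.729, then 3.12, 3.82 and 6.44 FPKM. VaccDscaff6-augustus-gene-92.23 (scaffold 6, 9234191 to 9236620, minus strand, 1349 bases) had 3.11, 2.76 and 3.12, then 1.14, 1.03 and 0.594, then 2.13, 2.67 and 4.59 FPKM. In each of these genes all 3 color break libraries were below all green and all mature libraries. At color break they fell, with log2 changes of -1.67, -1.38 and -1.42 (edgeR adjusted p = 0.00167, 0.00984 and 0.00386). From color break to mature fruit they rose by 2.08, 1.72 and 1.74 (adjusted p = 0.00820, 0.0280 and 0.0153). Green and mature libraries overlapped in all of them. The share of all tested genes whose libraries separate between stages is not given here. Separation is therefore reported as description only, for these genes and for the other genes and sums.

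Some of these calls were close to the threshold and single libraries weighed on them. Of the 4 genes, only the copy on scaffold 38 was still called from color break to mature fruit when the 2 stages were fitted alone or the replicate number was added as a block. For the scaffold 37 copy that call was also lost when 1 of 5 libraries was left out, namely replicates 1 and 3 of the green stage, replicate 1 of color break and replicates 2 and 3 of the mature stage (adjusted p = 0.0505 to 0.0748). Color break replicate 3 held the lowest and mature replicate 3 the highest value of each of the 4 genes. Defence genes (thaumatins, chitinases and glucanases, 81 of 199 passed the filter) had a summed FPKM of 10234 in color break replicate 3, against 5068 and 5284 in replicates 1 and 2, 4314 to 4416 in green and 5641 to 5882 in mature libraries. The part of this difference in the result was not tested. Without color break replicate 3 the 4 genes still fell at color break, by 1.08 to 1.44 on the log2 scale (adjusted p = 0.00256 to 0.0159), and rose from there to mature fruit by 1.42 to 1.85 (adjusted p = 0.00611 to 0.0278). Without mature replicate 3 they differed between color break and mature fruit by 1.37 to 1.83 on the log2 scale, and all except the scaffold 37 copy were called.

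**Figure D3:**
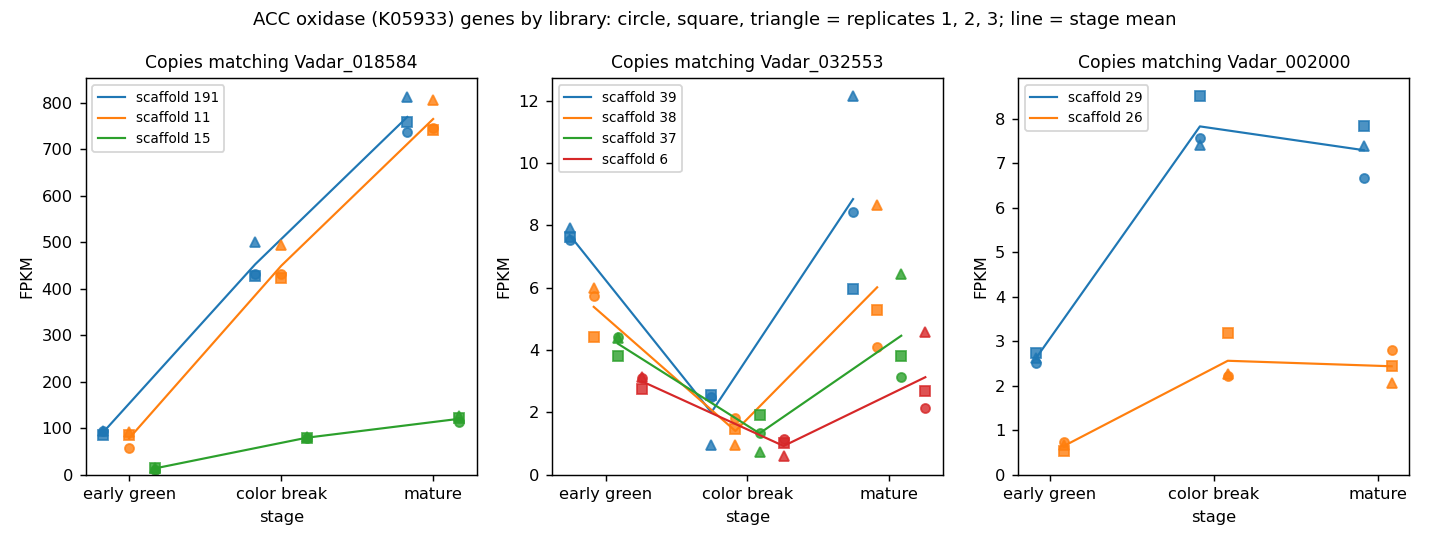
Each point is the FPKM of 1 gene in 1 library (circle, square and triangle for replicates 1, 2 and 3), lines join the stage means, and the panels hold the copies matching Vadar_018584, Vadar_032553 and Vadar_002000 on separate linear scales. The first set climbs to 812 FPKM, the second is lowest in all color break libraries, and the third stays near its color break level in mature fruit.

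The balance between the Vadar_018584 and Vadar_032553 sets shifted with the stage. The ratio of their summed FPKM was 7.86, 10.1 and 9.35 in green, 139, 133 and 333 in color break and 89.7, 91.5 and 54.8 in mature replicates. The 3 stages did not overlap. An exact permutation test of the log2 ratio gave p = 0.1 for each of the 3 stage comparisons (two-sided, also 0.1 after Benjamini-Hochberg adjustment), the smallest p that 3 against 3 libraries allow. Summed by set, the 4 Vadar_032553 genes fell by 1.56 on the log2 scale at color break (SE 0.33, adjusted p = 0.00476) and rose by 1.96 ± 0.34 from there to mature fruit (adjusted p = 0.0174). The second call was lost with only the 2 stages fitted (edgeR adjusted p = 0.0716) and with the replicate block (0.0616).

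The pair described as Vadar_002000 carries K05933 but not the annotation term for ACC oxidase activity. Its terms are for dioxygenase activity, for an enzyme acting on jasmonic acid and for the regulation of jasmonate signalling and defence, so these terms go against the K05933 label of the pair. In Arabidopsis, jasmonic acid oxidases are dioxygenases of the same superfamily that inactivate jasmonic acid. VaccDscaff29-augustus-gene-124.18 (scaffold 29, 12412149 to 12419315, plus strand, 3 exons) had 2.51, 2.74 and 2.62 FPKM in green, 7.57, 8.51 and 7.42 in color break and 6.67, 7.84 and 7.38 in mature replicates. It rose 3.61-fold at color break (log2 change 1.85 ± 0.10, adjusted p = 2.58e-07), and color break and mature libraries overlapped (log2 difference -0.12 ± 0.09, adjusted p = 0.511).

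VaccDscaff26-augustus-gene-126.26 (scaffold 26, 12667582 to 12674467, plus strand, 3 exons) had 0.736, 0.526 and 0.679 FPKM in green, 2.23, 3.19 and 2.27 in color break and 2.80, 2.46 and 2.06 in mature replicates. Its log2 difference between color break and green fruit was 2.25 ± 0.21, and its color break and mature libraries overlapped. It is the gene just inside the filter. The genes just outside it were VaccDscaff26-augustus-gene-5.22, with a highest value of 0.918 FPKM, and VaccDscaff21-augustus-gene-7.19.

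A further pair of genes has the same description, Vadar_002000, without K05933. VaccDscaff33-processed-gene-213.10 had a mean of 2.80 FPKM in green fruit, 10.8 at color break and 10.2 in mature fruit (log2 change at color break 2.22 ± 0.13, adjusted p = 4.38e-07). VaccDscaff21-augustus-gene-123.22 had 0.506, 1.93 and 1.55 FPKM and passed the filter only through its color break and mature libraries.

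The 8 K05933 genes below the filter had 0 to 0.918 FPKM in every library. Of these, 4 genes (on scaffolds 21, 26, 29 and 33, all described as Vadar_010941) had reads in all stages, and the other 4 (on scaffolds 2 and 25) had at most 20 counts each over the 9 libraries. The scaffold 21 and 26 copies have the same length of 921 bases and exactly equal FPKM in 4 of the 9 libraries and different values in the others, such as 0.918 and 0.267 FPKM for scaffolds 26 and 21 in mature replicate 2, so how their reads were divided is uncertain. Summed, the 8 genes had a mean of 0.911 ± 0.0382 FPKM in green, 1.33 ± 0.419 in color break and 1.68 ± 0.287 in mature libraries (log2 difference of mature against green 1.01 ± 0.28, adjusted p = 0.0105, not called in 6 of 19 alternatives).

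The sets are also sets of gene position, which the rule did not use. Among the 10 annotated genes on each side, any 2 of the Vadar_018584 genes shared 10 to 13 gene descriptions. Any 2 of the Vadar_032553 genes shared 10 to 12, and any 2 of the 4 Vadar_002000 genes 9 to 12. In 144 pairs of genes with different descriptions the number was 0, and in the other 3 such pairs, all among the low genes on scaffolds 2 and 25, it was 13 to 15. Genes of the first and second sets have 4 exons and the other K05933 genes 3. Of the 18 genes directly next to the 9 members, 13 passed the filter. Between green and color break 1 of them rose and 0 fell, against 8.89% and 13.9% of all tested genes. Between color break and mature fruit edgeR called 0 of them, against 1.37% of all tested genes, DESeq2 1 and limma 0. At that step 4 had an unadjusted edgeR p under 0.05, as did 10517 of all 48073 tested genes. Nothing is read from these counts.

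Among the other enzymes of ethylene synthesis, ACC synthase had low levels at each stage. Of its 8 genes 2 passed the filter, through color break and mature libraries alone, so they had to be lower in green fruit. VaccDscaff32-augustus-gene-29.17, the higher of them, had a mean of 0.0611 ± 0.0297 FPKM in green, 1.41 ± 0.757 in color break and 3.70 ± 0.916 in mature fruit. From color break to mature fruit it was not called (log2 difference 1.37). The other, VaccDscaff30-processed-gene-50.0, was called as rising at that step (log2 change 1.87), as were 0.763% of all tested genes. The summed level of the ACC synthase genes was 0.227 ± 0.0830, 3.11 ± 1.66 and 8.61 ± 1.33 FPKM, far below that of the ACC oxidases at each stage. At color break 8.89% of all tested genes rose and 13.9% fell, for comparison with the counts that follow. Of 17 tested genes for SAM synthetase, which makes the substrate of ACC synthase, 5 rose and 0 fell at color break, 2 of the 5 with less than 1 FPKM in every green library. Such genes passed the filter through the later stages alone and had to be lower in green fruit. The largest called change among them was in VaccDscaff29-augustus-gene-219.23 (2.63 ± 0.262 to 13.3 ± 1.82 FPKM, log2 change 2.60 ± 0.14, adjusted p = 2.92e-07), whereas the most abundant, VaccDscaff25-snap-gene-333.29, had 188 ± 9.62 and 80.7 ± 7.02 FPKM (log2 difference -0.94 ± 0.08, adjusted p = 7.18e-06). Of 23 tested genes of methionine salvage, the cycle that recycles the methylthio group released by ACC synthase, 4 rose and 2 fell, and 1 of the 4 had to be lower in green fruit by the filter. VaccDscaff30-augustus-gene-103.13 changed most, from 5.09 ± 0.262 to 83.7 ± 38.9 FPKM (4.31 ± 0.39, adjusted p = 5.36e-05).

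In the response pathway, 4 of 19 tested ethylene receptor genes rose at color break and 0 fell, and 2 of the 4 had to be lower in green fruit by the filter. The shares over all tested genes at color break, to be set beside the counts of each family here, were 8.89% rising and 13.9% falling. The most abundant receptor gene, VaccDscaff23-augustus-gene-93.31, went from 24.4 ± 2.02 to 52.3 ± 8.81 and 69.7 ± 14.0 FPKM over the 3 stages (log2 change at color break 1.37 ± 0.16, adjusted p = 9.91e-05). Of 10 genes for CTR1, the kinase that represses the response, 2 rose and 0 fell, and 1 of the 2 likewise had to be lower in green fruit. The median log2 change of the 10 was -0.31. The summed FPKM of the CTR1 genes was 35.8 ± 1.15 in green and 24.5 ± 0.250 at color break. Of 5 genes for EIN2, which relays the signal, 2 fell and 0 rose, and 1 of the 2 passed the filter through green libraries alone and had to be higher there. Of 10 EIN3/EIL transcription factor genes and 11 genes for EBF, the F-box proteins that target these factors for degradation, 0 were called at either step by edgeR, DESeq2 or limma. Of these 21 genes, 13 had an unadjusted edgeR p under 0.05 at color break and 5 at the step to mature fruit. Among all 48073 tested genes 28560 and 10517 did, so nothing is read from the 13 and the 5. All 3 tested ERF1 genes, targets of EIN3 in Arabidopsis, passed the filter through green libraries alone and had to be higher there, so their calls are not given as a result. The highest of them, VaccDscaff24-augustus-gene-34.39, had 3.83 ± 0.836 FPKM in green and 0.0236 ± 0.0207 in color break fruit. Of 5 tested genes for the removal of cyanide, the by-product of ACC oxidase, 0 rose and 2 fell at color break. The most abundant of the 5 by mean, VaccDscaff47-snap-gene-47.56, had 13.2 ± 0.638 FPKM in green and 19.2 ± 1.30 at color break. Its log2 difference was 0.81 ± 0.06 (edgeR adjusted p = 3.20e-06, not called for its size). VaccDscaff22-snap-gene-18.35 had 21.5 ± 2.79 FPKM in green and 1.55 ± 0.542 at color break (log2 change -3.52 ± 0.23, adjusted p = 2.06e-06) and was at 3.82 ± 0.456 FPKM in mature fruit.

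Of 12 tested genes of the polyamine branch, which also draws on SAM, 2 rose and 2 fell at color break. Over all 15 families of this list, 121 of 176 genes were tested, 20 rose and 12 fell at color break, and 6 rose and 0 fell between color break and mature fruit, against 8.89% and 13.9%, and 0.763% and 0.612%, of all tested genes. At color break 8 of the 20 and 4 of the 12 had to differ from green by the way they passed the filter, so 12 rising and 8 falling genes remained without them, and nothing is read from the totals against those shares. The 1 tested gene named as an ACC oxidase homolog without K05933, VaccDscaff36-snap-gene-283.39, had 3.44 ± 0.671 FPKM in green and 11.1 ± 0.571 at color break and rose there (log2 change 1.96 ± 0.15, adjusted p = 3.38e-06).

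**Figure D4:**
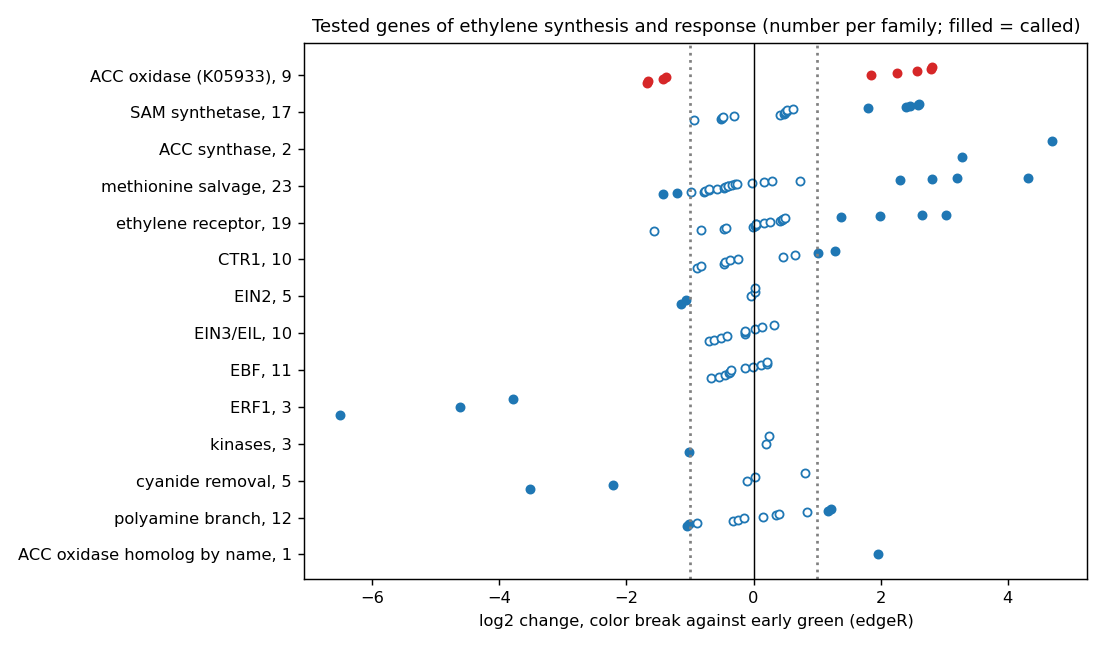
Each point is the edgeR log2 change of 1 tested gene from green to color break, by family, with ACC oxidase on top and filled points called. The ACC oxidase genes lie in separate groups from -1.67 to -1.38 and from 1.85 to 2.81. The tested EIN3/EIL and EBF genes all lie within the dotted lines at a log2 change of 1 in either direction. Some filled points had to differ from green fruit by the way their genes passed the filter. They include the ACC synthase and ERF1 genes and the ACC oxidase gene at a log2 change of 2.25.

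Likeness of profile was measured as the root mean square difference of log2(FPKM + 1) over the 9 libraries, each gene centred on its mean, among 773 tested genes with a named protein and a mean FPKM of at least 10. Nearest to VaccDscaff191-snap-gene-1.61 was a flavonoid 3',5'-hydroxylase gene, VaccDscaff8-augustus-gene-360.23, at a difference of 0.311 against a median of 1.28 over the candidates. That gene, for an enzyme of delphinidin pigment synthesis, had 348 ± 22.3 FPKM in green, 2094 ± 38.6 in color break and 2155 ± 62.0 in mature fruit. Next came a late embryogenesis abundant protein gene (0.315), 2 genes named 7-deoxyloganetin glucosyltransferase (0.357 and 0.416) and a caffeoyl-CoA O-methyltransferase gene of the lignin route (0.433). The copies on scaffolds 15 and 11 were nearer than any of these, at 0.156 and 0.211.

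Nearest to VaccDscaff39-augustus-gene-284.28 were a cation-transporting ATPase gene, VaccDscaff98-augustus-gene-4.55 (0.499, with 13.6 ± 1.15, 5.87 ± 0.985 and 10.6 ± 1.49 FPKM over the 3 stages), and genes named regulator of rDNA transcription protein 15 (0.513), calmodulin binding protein PICBP-like (0.536), repetitive proline-rich cell wall protein 2-like (0.539) and ATP synthase subunit beta (0.544). The median over the candidates was 0.897. Its own copies on scaffolds 38, 37 and 6 were at 0.249, 0.287 and 0.347, and the 3 Vadar_018584 genes at 1.69 to 1.80.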

How the data were processed

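Fruit RNA of 9 libraries was sequenced on an Illumina NovaSeq, per the labels' protocols, whose library text names a poplar hybrid although organism and gene names are blueberry. The submitters' processing notes name fastp, HISAT2, StringTie and DESeq2 without versions or roles, and no source used here gives the genome build. The authors deposited FPKM per transcript model and estimated counts, as whole numbers, for 93716 genes. For 99.8% to 99.9% of genes the estimated count differed by at most 1 from the product of FPKM, length and a library constant. Counts were used as deposited. A count of 0 allows up to 3 counts, or 0.0444 to 0.0567 CPM, for counting error only.

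Genes that reached an FPKM of 1 in 3 or more libraries were fitted with edgeR 4.0.16 in R 4.3.3 (TMM, robust quasi-likelihood, stage as only term, all 9 libraries). Calls needed an adjusted p under 0.05 over all tested genes and a log2 change of 1 or more in either direction. The fit was repeated with all K05933 rows summed and, added after seeing the data, summed by description. limma 3.58.1 and DESeq2 1.42.0 were alternatives. The fit was tested on simulated data, with 50 genes changed at each fold. Over the 3 comparisons it called 30% to 38% of 2-fold, 80% to 86% of 4-fold and 94% to 96% of 8-fold changes. Of 1.5-fold changes 0% to 2% were called, and of unchanged genes 0.0104% to 0.0188%. A gene that was not called may therefore still have changed. Samples were grouped by the labelled stage. Library strand was not used, so overlapping genes cannot be separated. Members and lists were chosen with earlier results of these data known. Named pathway genes are the most abundant gene of a family and the called gene with the largest change at color break, printed for part of the families.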

Additional observations from a re-analysis of the deposited data

How the results depend on the processing

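The summed ACC oxidase counts kept their direction and their calls under all 19 alternatives of each comparison, over log2 ranges of 2.21 to 2.61 at color break, 0.69 to 0.79 from there to mature fruit and 2.96 to 3.34 from green to mature fruit. The calls at color break were kept wherever they were tested by the 8 genes whose difference from green was not fixed by the filter. With a mean FPKM of at least 5, which only 5 of the 9 genes reach, 5 genes were called at color break and 1 from color break to mature fruit, and 3488, 196 and 3776 of all genes in the 3 comparisons. From color break to mature fruit 1 member was called with only the 2 stages compared and 1 with the replicate block, and 3 to 4 with single libraries left out. Deviations from the stage means correlated at -0.0302 to 0.223 over 9 same-numbered pairs and at -0.174 to 0.117 over 18 others. Between color break and mature fruit the same-numbered pairs had 0.0429, 0.105 and 0.223, and the other pairs -0.174 to 0.117. Color break replicate 1 correlated best with mature replicate 2 (0.117). Whether the numbers pair the libraries is thus not settled, and the main fit does not use them. All genes called at that step numbered 1036 with DESeq2, 246 with limma on log2(FPKM + 1), 346 with only the 2 stages compared and 415 to 1050 with single libraries left out, the last without color break replicate 3 and the first without mature replicate 3, against 661. Library size alone as scaling moved the median of all genes at color break from -0.01 to -0.31 on the log2 scale and the split of calls from 4274 rising and 6705 falling to 2941 and 9465, while all 9 members kept their direction. Directions turned only in differences that were not called. From color break to mature fruit the scaffold 26 gene VaccDscaff26-augustus-gene-126.26 had -0.09, but -0.20 to 0.10 with single libraries left out (above 0 without color break replicate 2 and without mature replicate 3, at 0.02). Between green and mature fruit VaccDscaff37-augustus-gene-16.26 had 0.34, but -0.018 (without mature replicate 3) to 0.54 with single libraries left out, and VaccDscaff6-augustus-gene-92.23 had 0.32, but -0.058 (without that library) to 0.53 and -0.010 with limma on log2(FPKM + 0.1). The cause was not tested.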

Other observations

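A further 12 genes carry the annotation term for ACC oxidase activity without K05933, on scaffolds other than those of the 3 ripening genes. Their means stayed at or below 9.46 FPKM in every stage. Of the 6 that passed the filter 0 rose and 1 fell at color break, against 8.89% and 13.9% of all tested genes. The 1 that fell was VaccDscaff26-snap-gene-257.30, from 4.54 ± 0.103 to 1.35 ± 0.483 FPKM (log2 change -1.47 ± 0.29, edgeR adjusted p = 0.00215). At this step DESeq2 called 1 of the 6, limma on log2(FPKM + 0.1) 3 and limma on log2(FPKM + 1) 1. From color break to mature fruit 0 were called by edgeR, DESeq2 or limma, and 0 had an unadjusted p under 0.05. Among all 48073 tested genes edgeR called 1.37% at that step, and 10517 had an unadjusted p under 0.05. With only 6 genes, nothing is read from these counts of 0.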
